A study of Homo sapiens with 6 samples.

Results

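GPRC5A and 8 genes of retinoic acid signalling were followed in Caco-2 cells, a line from a human colon carcinoma whose cells take on features of enterocytes, after transfection with an siRNA against SDC1. SDC1 encodes syndecan-1, a heparan sulfate proteoglycan of the epithelial cell surface. GPRC5A and PLAAT4 (also written RARRES3) were selected on the difference between the groups in these same arrays, so their differences are given as a description with no test. RARA, RARB, RARG, CYP26A1, CYP26B1, DHRS3 and CRABP2 were added for their place in the retinoid pathway, to ask whether a higher GPRC5A and a lower PLAAT4 went with a wider retinoid pattern. All 9 genes were measured, by 22 of the 41091 probe sets that carry 1 gene symbol, among 19775 genes in all. The series holds 3 arrays of cells given negative control siRNA and 3 of cells given SDC1 siRNA, with no other treatment named and no untransfected cells. The sources used here do not give the siRNA sequences, the time after transfection or any addition of retinoid. Since the labels do not say whether each replicate was a culture of its own, a p-value here reflects the spread among these 6 arrays, and that spread may be technical. An array measures the RNA of a whole culture, so a change in each cell and a change in part of the cells cannot be told apart.

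Retinoic acid is made from vitamin A in steps. Carotene or retinyl esters are turned into retinol and retinal, and aldehyde dehydrogenases of the ALDH1A family oxidise retinal to retinoic acid. The acid is carried by CRABP2 to the retinoic acid receptors RARA, RARB and RARG, which bind DNA together with a retinoid X receptor and release corepressors when the ligand is present. CYP26 enzymes break the acid down, and DHRS3 turns retinal back into retinol. The genes of CYP26A1, RARB and DHRS3 are themselves switched on by retinoic acid, so in many cells they serve as its readout. GPRC5A, an orphan receptor of the cell surface, is also named retinoic acid-induced protein 3, and PLAAT4, a phospholipase and acyltransferase of the LRAT-like family, retinoic acid receptor responder 3. The small intestine is where most dietary vitamin A is taken up, and Caco-2 cells are often used to study that step.

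Receptor pairs bind direct repeats of a short hexamer, and the promoters of RARB and CYP26A1 show the type most closely tied to retinoic acid, with hexamers spaced by 5 bases (DR5). Promoter windows of 300 bases, from 250 before to 50 after each start, were searched on both strands in the RefSeq table (GRCh38.p14), which held 15 windows of 7 of the 9 genes. Windows of GPRC5A and PLAAT4 were not used here. The hexamers searched were AGGTCA, the variant AGTTCA, the variant GGGTCA and the variant GGTTCA, paired with spacers of 1, 2 or 5 bases. A DR5 was found in 1 of 4 RARB windows and in 1 of 2 CYP26A1 windows, against 31 of 35116 windows in the whole table (0.0883%). No repeat spaced by 1 or 2 bases was found in the 15 windows, where 0.131% and 0.0399% of all windows held one. A single AGGTCA, which 13.8% of all windows held, was found in 1 RARA, 1 RARB and 1 DHRS3 window, and AGTTCA, held by 10.4%, in 2 RARB windows and 1 CYP26A1 window. These counts include the AGTTCA hexamers inside the DR5 repeats. A match is a description of the letters and not evidence of binding. The windows below are shown because both genes are textbook targets whose values are given further on. The DR5 is in capitals, chr3:25428013-25428312 for RARB and chr10:93073643-93073942 for CYP26A1, both on the plus strand.
RARB: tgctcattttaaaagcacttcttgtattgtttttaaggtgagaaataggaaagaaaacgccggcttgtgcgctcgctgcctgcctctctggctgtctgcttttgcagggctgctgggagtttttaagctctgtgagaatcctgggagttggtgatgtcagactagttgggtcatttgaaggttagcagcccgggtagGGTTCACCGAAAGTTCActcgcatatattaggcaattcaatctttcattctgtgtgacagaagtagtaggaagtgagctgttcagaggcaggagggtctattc
CYP26A1: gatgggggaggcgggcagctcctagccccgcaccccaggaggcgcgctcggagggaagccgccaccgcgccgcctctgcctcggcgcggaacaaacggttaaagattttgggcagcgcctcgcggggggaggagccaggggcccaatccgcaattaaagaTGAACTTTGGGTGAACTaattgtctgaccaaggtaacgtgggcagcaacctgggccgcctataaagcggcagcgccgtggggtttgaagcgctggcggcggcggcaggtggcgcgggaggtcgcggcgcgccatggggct
The RARB repeat lay from 53 to 37 bases before the start on the gene's own strand, and the CYP26A1 repeat from 90 to 74 bases before it on the opposite strand. Read in the direction of the motif, with hexamers in capitals, the sites are as follows.
RARB site: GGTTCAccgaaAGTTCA
CYP26A1 site: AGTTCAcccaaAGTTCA
They share 15 of 17 bases. Counted from 1 at the 5′ end, with the RARB base first, the differences are G1A and G9C, the first in the upstream hexamer and the second in the spacer.

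The deposited log2 signals are centred, each probe set having a median of 0 over the 6 arrays, so they show how arrays differ and not how strongly a gene was expressed. A coarse class of brightness (log2 signal of 8 to 16, 4 to 8 or below 4) was read from the rounding steps of the numbers, and each gene's value is the mean of its probe sets in its brightest class. No class is a sign of expression by itself. Of 4 measured leukocyte markers CD3E, CD14 and ITGAM were in the class of 4 to 8 and PTPRC below 4, and of 4 endothelial markers VWF was in the top class, PECAM1 and CDH5 in the middle one and KDR below 4. Of 10 intestinal epithelial markers 9 were measured, with EPCAM, CDH1, KRT8, KRT18 and KRT19 in the top class, VIL1 and CDX2 in the middle class and CDH17 and KRT20 below 4. Of 6 fibroblast markers COL1A1 and COL1A2 were in the top class and the others in the middle one. SDC1 itself was at 0.375, 0.35 and 0.35 in the control arrays and at -0.50, -0.62 and -0.34 with SDC1 siRNA, a difference of -0.84 ± 0.08 (log2, standard error; limma adjusted p = 0.0238 over all genes). That call was lost when any 1 array was left out, with a limma adjusted p from 0.0615 to 0.326. In the limma fit the adjusted p was under 0.05 for 5 genes in all (0.0253%). That count ran from 0 to 39 over the alternatives, and whether GPRC5A and PLAAT4 were among the genes past the threshold changed with the setting. The groups did not overlap in 3308 genes (16.7%), and the median absolute difference over all genes was 0.08.

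GPRC5A, the receptor, was higher in each SDC1 siRNA array than in any control array. Its relative log2 signal was -0.49, -0.35 and -0.43 in control replicates 1, 2 and 3 and 0.32, 0.45 and 0.34 in SDC1 siRNA replicates 1, 2 and 3. The gap between the groups was wide beside the spread within them, with an SD of 0.07 in each (n = 3). The difference was 0.79 ± 0.07 (log2, standard error; 1.73-fold, 95% interval 1.54 to 1.94), which ranks 2 among 19775 genes ordered from the highest difference.

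The 3 GPRC5A probe sets did not show this equally. Probe set 212444_at was at -0.47, -0.50 and -0.40 in the controls and 0.45, 0.44 and 0.40 with SDC1 siRNA, a difference of 0.89 ± 0.08 (log2, standard error) with the tightest replicates. Probe set 203108_at was at -0.50, -0.20 and -0.46 against 0.20, 0.45 and 0.28, a difference of 0.69 ± 0.11. Both groups of both probe sets were apart, although control replicate 2 stood closer to the SDC1 siRNA arrays in the second one. The third, 235563_at, had a brightness class below 4. It was at -0.09, 0.00 and 0.22 in the controls and -0.02, 0.31 and 0.00 with SDC1 siRNA, so its groups overlapped and its difference was 0.05 ± 0.12. Averaging all 3 gave 0.545 for the gene.

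PLAAT4 was lower in each SDC1 siRNA array than in any control array. Its 1 probe set, 204070_at, was at 0.25, 0.47 and 0.27 in control replicates 1, 2 and 3 and at -0.28, -0.36 and -0.25 in SDC1 siRNA replicates 1, 2 and 3. Control replicate 2 was the highest array, and the SDC1 siRNA arrays lay close together. The difference was -0.63 ± 0.08 (log2, standard error; 0.65 of the control signal, 95% interval 0.57 to 0.74), which ranks 14 from the lowest. It was -0.56 without control replicate 2 and between -0.67 and -0.60 without any other single array. PLAAT4 rests on this probe set alone, so no second measurement of the transcript bears on it.

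**Figure D1:**
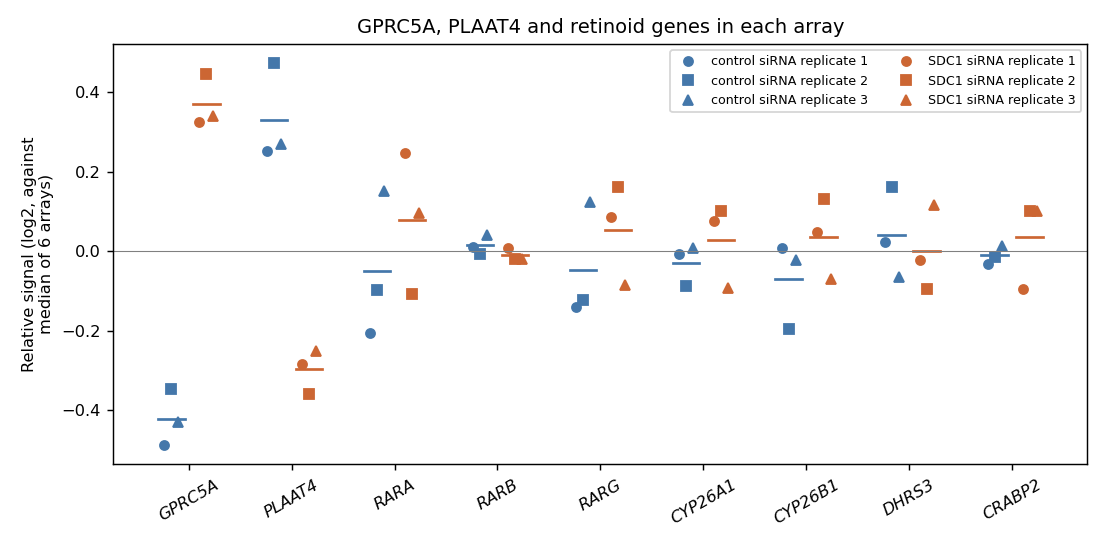
Relative log2 signal (vertical axis, against the median of the 6 arrays) of the 9 genes in each array, with marker shape for the replicate number and short lines for group means. GPRC5A (control mean -0.42, SDC1 siRNA mean 0.37) and PLAAT4 (0.33 and -0.30) are apart by group in opposite directions, and the groups of the other 7 genes overlap.

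The 7 other genes showed no change that passed the test. In the limma fit over all genes 0 of 7 passed an adjusted p of 0.05 (0.0253% of all genes did) and 0 of 7 were at an unadjusted p under 0.05 (10.6% of all genes were). Their groups overlapped in 7 of 7, where 16.7% of all genes had groups apart. Such counts among only 7 genes set them little apart from others. Differences ran from -0.04 for DHRS3 to 0.13 for RARA, 5 above 0 and 2 below, with a median of 0.06 beside 0.01 over all genes. The highest upper bound of a 95% interval was that of RARA, 1.32-fold. Probe sets can compress a difference in RNA to different degrees, so these are differences in measured signal and not in amounts of transcript.

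Among the receptors, RARB is well known to be induced by retinoic acid itself. It was at 0.01, -0.01 and 0.04 in the controls and 0.01, -0.02 and -0.02 with SDC1 siRNA. These 6 values are nearly the same, and the difference was -0.02 ± 0.06 (log2, standard error; 95% interval -0.17 to 0.12, limma adjusted p = 0.932). The even gene value is a mean over probe sets that moved apart, 205080_at (-0.05), 208412_s_at (-0.12) and 208530_s_at (0.095). The dim RARB probe sets 208413_at and 217020_at were at 0.20 ± 0.13 and 0.20 ± 0.12, both with overlapping groups and with control replicate 2 lowest. Averaging all 5 gave 0.065.

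RARA, the widely expressed receptor, was at -0.205, -0.10 and 0.15 in the controls and 0.25, -0.11 and 0.10 with SDC1 siRNA. Both groups spanned most of the range, and the difference was 0.13 ± 0.12 (limma adjusted p = 0.755). It was 0.045 without SDC1 siRNA replicate 1, 0.052 without control replicate 1, 0.22 without SDC1 siRNA replicate 2 and 0.23 without control replicate 3. Its 5 probe sets lay between -0.115 and 0.13, 4 of them above 0. Of these, 216300_x_at alone kept the groups apart, at -0.085, -0.02 and -0.02 against 0.02, 0.11 and 0.04. RARG, the receptor best known from skin, was at -0.14, -0.12 and 0.125 in the controls and 0.085, 0.16 and -0.085 with SDC1 siRNA, a difference of 0.10 ± 0.10 (limma adjusted p = 0.776). Its 3 probe sets were all above 0, from 0.06 to 0.18, and the dim one, 217178_at, kept the groups apart. Control replicate 3 was the highest control and SDC1 siRNA replicate 3 the lowest of its group for RARG.

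CYP26A1, the main inducible enzyme of retinoic acid breakdown and the carrier of the DR5 printed above, was at -0.01, -0.09 and 0.01 in the controls and 0.075, 0.10 and -0.09 with SDC1 siRNA. The lowest array of all was SDC1 siRNA replicate 3, so the groups overlapped. The difference was 0.06 ± 0.08 (log2, standard error), and the 95% interval ran from 0.92-fold to 1.175-fold (limma adjusted p = 0.846). CYP26B1, a second enzyme of the family, was at 0.01, -0.195 and -0.02 in the controls and 0.05, 0.13 and -0.07 with SDC1 siRNA, a difference of 0.11 ± 0.09 (limma adjusted p = 0.714). Its 2 probe sets differed. Probe set 219825_at was at -0.025 ± 0.09, while 234721_s_at was at 0.24 ± 0.10, with groups apart at -0.001, -0.26 and -0.09 against 0.11, 0.25 and 0.001. Tested among all 54613 probe sets, the second had an unadjusted p = 0.049 and a limma adjusted p = 0.599.

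DHRS3, the retinal reductase, was at 0.02, 0.16 and -0.06 in the controls and -0.02, -0.09 and 0.12 with SDC1 siRNA. Each group had values on both sides of 0, and the difference of -0.04 ± 0.09 (limma adjusted p = 0.917) turned to 0.021 without control replicate 2. CRABP2, the carrier of retinoic acid to the nucleus, was at -0.03, -0.01 and 0.01 in the controls and -0.10, 0.10 and 0.10 with SDC1 siRNA. The controls were tight and the SDC1 siRNA arrays were not, with replicate 1 lowest of all, and the difference was 0.045 ± 0.08 (95% interval -0.13 to 0.22, limma adjusted p = 0.884).

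Across the 18 probe sets of these 7 genes, tested singly, 0 passed a limma adjusted p of 0.05, against 0 of all 54613 probe sets (0.0%). At an unadjusted p under 0.05 there was 1 of the 18, and 4547 of all probe sets (8.33%). The groups were apart in 3 of the 18, all higher with SDC1 siRNA, and in 14.5% of all probe sets (7.06% higher). The 18 differences ran from -0.12 to 0.24 with a median of 0.08. The number of arrays limits what these values can show, since the standard error of each of the 7 gene values was larger than their median difference.

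**Figure D2:**
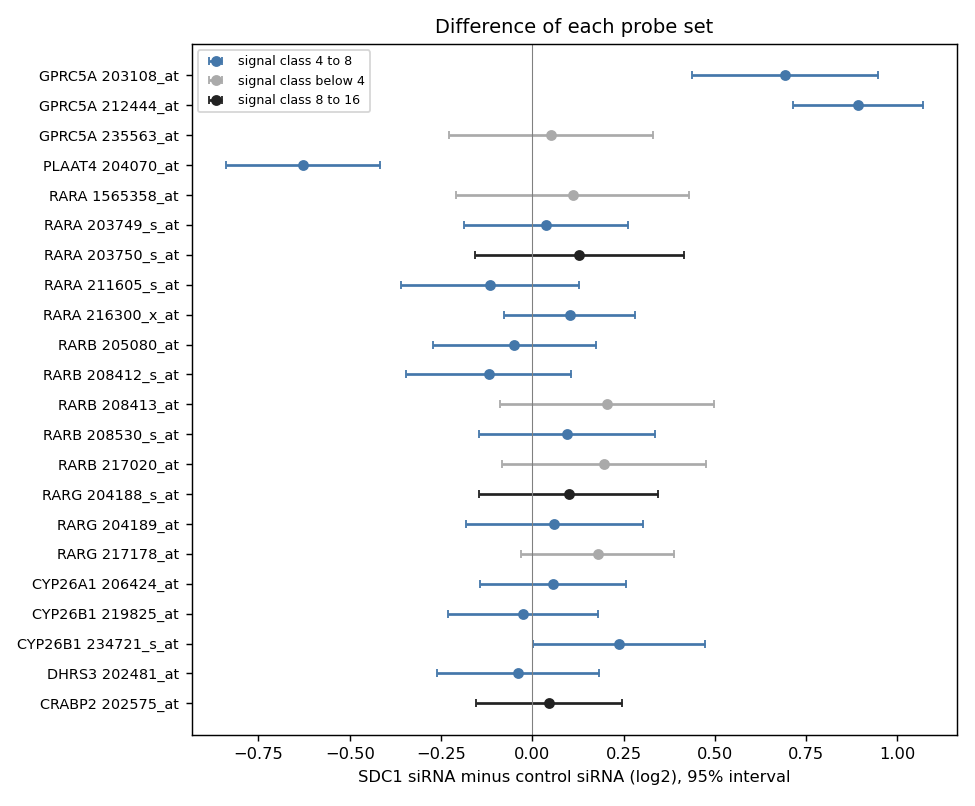
Difference between SDC1 siRNA and control siRNA (horizontal axis, log2) for each of the 22 probe sets, with its 95% interval from the fit of single probe sets and the colour giving the brightness class. GPRC5A probe sets 203108_at and 212444_at are at 0.69 and 0.89 and PLAAT4 at -0.63. Both genes were selected on this difference, so their intervals are a description and no test. The dim GPRC5A probe set is at 0.05, and the other 18 lie between -0.12 and 0.24.

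The pathway was then read more widely through 89 further genes in 8 lists, of which 74 were measured. In the limma fit 0 of 74 passed an adjusted p of 0.05 in either direction, where 0.0253% of all genes did. With so small a share, a count of 0 passing here or in any list below sets the genes little apart from others. At an unadjusted p under 0.05, 3 were higher and 4 lower (9.46%, against 10.6% of all genes). The groups were apart in 9 of 74 (12.2%, against 16.7% of all genes). The 74 differences ran from -0.30 to 0.35 with a median of 0.01, and 41 were above 0, where 52.1% of all genes were.

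Of 13 genes of uptake, carriage and storage, 9 were above 0 and 0 passed. The largest were the transport protein TTR, at 0.35 ± 0.18, and the carotene-cleaving oxygenases BCO1 and BCO2. The groups of TTR overlapped, and its lowest array was control replicate 2 at -0.70. BCO2, which cuts carotenoids off centre, was at -0.24, -0.08 and -0.25 in the controls and 0.24, 0.09 and 0.08 with SDC1 siRNA. Its groups were apart, with a difference of 0.33 ± 0.08 (limma adjusted p = 0.222), from 1 probe set below a class of 4. BCO1, which makes retinal from beta-carotene, was at 0.04, -0.41 and -0.31 against 0.305, -0.04 and 0.05, a difference of 0.335 ± 0.13 (limma adjusted p = 0.425). Its control replicate 1 lay inside the range of the SDC1 siRNA arrays. Outside these 13 genes, ISX, the intestinal factor that retinoic acid induces and that represses BCO1, was at 0.15 ± 0.13. Its probe set was below a class of 4. The retinol-binding protein RBP2 of enterocytes, 1 of the 13, was at 0.05 ± 0.12, and the groups of both overlapped. TTR, ISX and RBP2 were named after their values were seen.

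Of 12 oxidoreductases of retinol and retinal 0 passed, 8 above 0 and 4 below with a range from -0.14 to 0.14. RDH10, which makes retinal for retinoic acid synthesis, was at -0.14 ± 0.08, and AKR1B10, a retinal reductase, at 0.13 ± 0.09 from a probe set below a class of 4. The 4 measured genes of synthesis and breakdown, ALDH1A1, ALDH1A2, ALDH1A3 and ALDH8A1, were all above 0 (52.1% of all genes were), from 0.09 to 0.19, and 0 passed. ALDH1A1 and ALDH8A1 were below a class of 4. ALDH1A2, the retinal dehydrogenase of embryonic tissue, was at 0.19 ± 0.09 (limma adjusted p = 0.527), and ALDH1A3 at 0.09 ± 0.09. The groups of all 4 overlapped, where 16.7% of all genes had groups apart, so this sets so few genes little apart from others.

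Of 12 retinoid X receptors and other partner receptors, 9 were below 0, 3 had groups apart (25.0%, against 16.7% of all genes), all lower with SDC1 siRNA, and 0 passed. The thyroid hormone receptor THRB was at 0.05, 0.34 and 0.045 in the controls and -0.08, -0.12 and -0.03 with SDC1 siRNA. The groups were apart, control replicate 2 was highest, and the difference was -0.22 ± 0.09, or -0.12 without that array. The oxysterol receptor NR1H3 was at -0.22 ± 0.09, also with groups apart (limma adjusted p = 0.46 for both), and at -0.13 without control replicate 1. RXRA was at -0.24 ± 0.12 with overlapping groups, and RXRB at 0.14 ± 0.10; both were named after their values were seen.

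Of 8 cofactors, 6 were below 0 and 0 passed. TBL1XR1, a subunit of the corepressor complex that unliganded receptors recruit, was at 0.10, 0.16 and 0.21 in the controls and -0.12, -0.21 and -0.10 with SDC1 siRNA. These groups were apart, and the difference of -0.30 ± 0.07 (log2, standard error) had the lowest limma adjusted p of the 74, 0.199. The coactivator NCOA1 was at -0.14 ± 0.08.

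Of 18 other genes known to respond to retinoic acid, 12 were above 0 and 0 passed, and the groups were apart in 4 (22.2%, against 16.7% of all genes), of which 2 were higher and 2 lower. TGM2, tissue transglutaminase and a long-known retinoic acid target, was at -0.10, -0.09 and -0.12 in the controls and 0.06, 0.17 and 0.05 with SDC1 siRNA. Its groups were apart with tight controls, and the difference was 0.20 ± 0.07 (limma adjusted p = 0.357). MEIS1, a homeobox factor, was at 0.16, 0.315 and 0.08 against -0.17, -0.10 and -0.08, a difference of -0.30 ± 0.08 (limma adjusted p = 0.261). RARRES1, which shares with PLAAT4 the name of retinoic acid receptor responder but not its protein family, was at 0.16 ± 0.08 from probe sets below a class of 4, and RARRES2, the precursor of chemerin, at 0.15 ± 0.09. Both lay on the side opposite to PLAAT4 and neither passed. RARRES1 and RARRES2 were named after their values were seen.

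**Figure D3:**
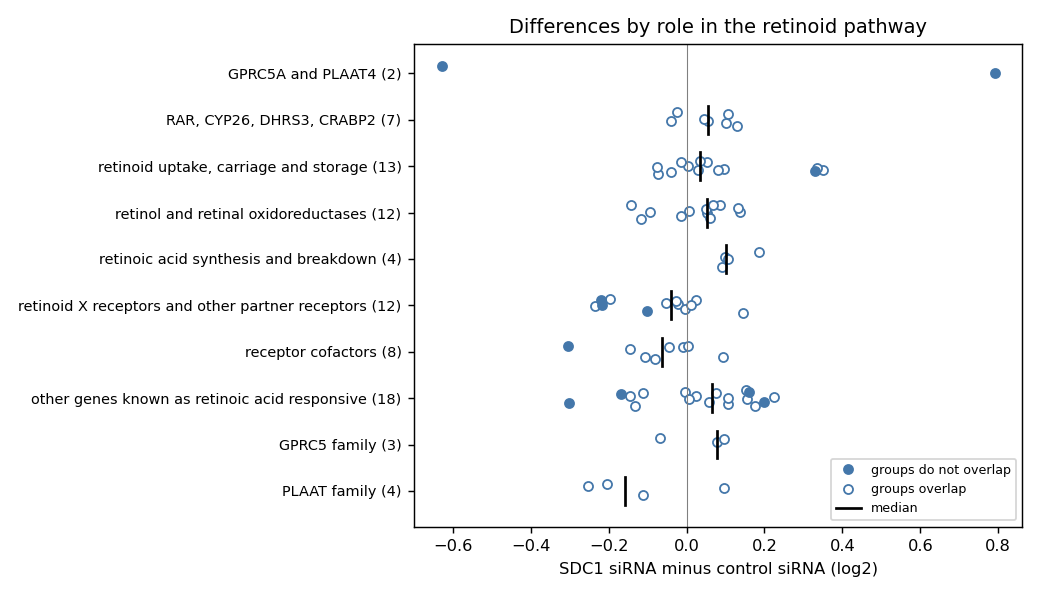
Difference between SDC1 siRNA and control siRNA (horizontal axis, log2) for GPRC5A, PLAAT4, the 7 other genes and the 8 wider lists, with the number of measured genes in brackets, filled points where the groups do not overlap and a black line at each median. The 74 further genes lie between -0.30 and 0.35. PLAAT4 (-0.63) and GPRC5A (0.79) were selected on this difference, so nearly all genes of the series lie between them.

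The relatives of the pair by sequence family did not pass either, where 0.0253% of all genes did and 16.7% had groups apart. Counts of 0 among so few genes set the families little apart from others. Of the other GPRC5 receptors, GPRC5B was at 0.08 ± 0.07, GPRC5C at -0.07 ± 0.07 and GPRC5D at 0.10 ± 0.12, all with overlapping groups. One GPRC5B probe set, 228313_at, was at 0.30 ± 0.16, with SDC1 siRNA replicate 1 at 0.55 above its other arrays. The other GPRC5B probe sets were at 0.04 (203632_s_at), -0.10 (225511_at) and -0.09 (203631_s_at, dim). Averaging all of them gave 0.037. In the PLAAT family PLAAT5 was at -0.25 ± 0.11, PLAAT1 at -0.20 ± 0.10, PLAAT3 at -0.11 ± 0.075 and PLAAT2 at 0.10 ± 0.09, and 0 of 4 passed (lowest limma adjusted p = 0.473). The second PLAAT5 probe set, below a class of 4, was at 0.09 ± 0.10.

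Neighbours on the chromosome were compared next, 3 protein-coding genes on each side in the order of the RefSeq annotation. GPRC5A on chromosome 12 lies beside GPRC5D, and its 5 measured neighbours were between -0.13 (HEBP1) and 0.10 (GPRC5D). PLAAT4 on chromosome 11 lies in a cluster with PLAAT5, PLAAT2 and PLAAT3, and its 6 measured neighbours were between -0.25 (PLAAT5) and 0.32 (SLC22A9, from a probe set below a class of 4). The groups overlapped in 11 of 11 neighbours, and 0 passed in the limma fit, where 0 were at an unadjusted p under 0.05. Over all genes the groups were apart in 16.7%, 10.6% were at an unadjusted p under 0.05 and 0.0253% passed, so counts of 0 among so few genes set them little apart from others.

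**Figure D4:**
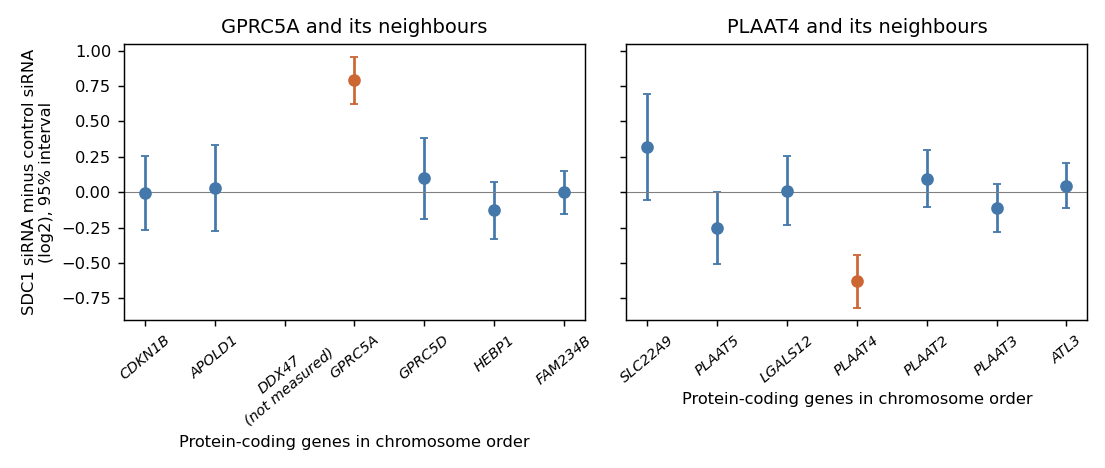
Difference between SDC1 siRNA and control siRNA (vertical axis, log2, with 95% intervals) for GPRC5A, PLAAT4 and the 3 protein-coding genes on each side, in chromosome order and not to scale. GPRC5A (0.79) and PLAAT4 (-0.63) were selected on this difference, so a gap to other genes is given by the selection. Their neighbours lie between -0.25 and 0.32, and DDX47 was not measured by a probe set of its own.

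The genes whose 6 values came closest to those of GPRC5A, by root mean square difference (relative log2, 6 arrays), were FLRT3 (0.125), FN1 (0.125), LBH (0.14), TAS1R1 (0.14) and OXTR (0.14). FN1, fibronectin, was close only through probe sets of shared sequence types (_x_at and _s_at) and differed by -0.04 without them. LBH, and BLNK and CDH10 named below, had probe sets of these types alone. TAS1R1 differed by 0.28 when all its probe sets were averaged in place of 0.54. Closest to the sign-turned values of GPRC5A were MPDZ (0.08), SDC1, ERBB4, SOSTDC1 and BLNK (0.12 each), where ERBB4 differed by -0.105 with all its probe sets in place of -0.63. PLAAT4 stood at place 8 in that order, at 0.14. Closest to PLAAT4 were the complement component C5, DIRAS2, CDH10, DENND4A and the iron reductase CYBRD1 (0.07 to 0.075), and closest to its sign-turned values were LBH, FGFBP1, IL2RB, EMP2 and GNAZ (0.07 to 0.10). The 74 further retinoid genes differed only by -0.30 to 0.35, too little to come among these names, so their absence carries no information. The measure favours genes with a group difference of similar size, and with 6 arrays in 2 groups it says nothing of shared function or control.

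The DR5 repeat gave one more set, whose genes were taken by promoter sequence, although the set was added after the array values were seen. Of 29 genes with a DR5 in a promoter window, 15 were measured, RARB and CYP26A1 included. Their differences ran from -0.20 to 0.23 with a median of -0.001, 7 above 0 and 8 below. In the limma fit 0 of 15 passed (0.0253% of all genes did), 1 was at an unadjusted p under 0.05 (10.6% of all genes), and the groups were apart in 2 (16.7% of all genes). These counts are near those shares, and nothing about the set is read from them.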

How the data were processed

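Total RNA (3.6 µg per array, per the labels' protocols) was labelled with biotin and hybridised to Affymetrix arrays. The authors' deposited values are log2 signals; the submitters' processing notes name RMA, without a version. Each of the 54675 probe sets has a median of 0 over the 6 arrays (tolerance 1e-06), a step the sources do not describe, so depth and detection are unknown.

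Brightness classes came from floating-point steps (tolerance 0.15 of a step); chance places some probe sets a class too high. Probe sets with 1 symbol in the platform annotation were named, 99.9% of them updated through RefSeq identifiers. Several or no symbols left out 1801 and 11721, and 62 were controls. No pair of arrays shared more than 52 identical values (all digits) among 19775 genes. The fit used lmFit and eBayes of limma 3.58.1 (R 4.3.3), with Benjamini-Hochberg adjustment over all genes and a threshold of 0.05, and was checked on simulated arrays. No batch or date is given.

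The members, lists and rules were chosen with earlier results of these data known. Named genes are the members, SDC1, genes past the threshold or the 2 with the lowest p per list, and the 5 closest patterns; the remaining genes of short lists, RXRA, RXRB, TTR, ISX, RBP2, RARRES1 and RARRES2 were named outside it after their values were seen. Neighbours and the set of DR5 genes were added after the values were seen. Alternatives changed the arrays used (each left out), the scaling (quantile, median), the fit (weights, robust, replicate block) and the probe sets (all, none of shared types, none dim).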

Additional observations from a re-analysis of the deposited data

How the results depend on the processing

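GPRC5A stayed above 0 and PLAAT4 below 0 in each of 14 alternatives. Both were selected on this difference in the same arrays and had groups apart. Leaving out 1 array could therefore not turn the sign, and nothing is read from its staying the same. Leaving out 1 array gave 0.75 to 0.83 for GPRC5A and -0.67 to -0.56 for PLAAT4, and averaging all probe sets gave 0.545 for GPRC5A, since the dim probe set then counts. The counts of the 7 other members and of the 74 further retinoid genes past an adjusted p of 0.05 were 0 in all 14. Over all genes only 0 to 39 passed in these settings, so counts of 0 here were nearly given in advance. They say little of the retinoid genes. Of the 7, 3 changed sign: RARB was 0.065 when all its probe sets were averaged, CYP26B1 -0.025 without _x_at and _s_at probe sets, and DHRS3 lay between -0.10 and 0.021 with 1 array left out (0.021 without control replicate 2 and 0.007 without SDC1 siRNA replicate 2). RARG ran from 0.046 to 0.185, CYP26A1 from 0.02 to 0.116, CYP26B1 from 0.043 to 0.16 and CRABP2 from 0.012 to 0.11 in the same fits. The count over all genes, 5 in the main setting, was 9 after quantile normalization again, 39 with array weights, 3 with a robust fit (which did not converge for some genes), 3 with the mean of all probe sets, 11 among genes of a class of 4 or higher (fewer genes tested) and 0 to 1 with 1 array left out; the cause was not tested for the first 3. Single probe sets past the threshold were 3 with array weights and 2 among those of a class of 4 or higher, against 0. With the replicate number as a block the count over all genes was 0 and SDC1, at -0.84, no longer passed (limma adjusted p = 0.0929). Deviations of same-numbered arrays correlated at -0.008, -0.263 and -0.113. These values show no sign that the numbers pair the arrays, but with 3 arrays per group they cannot exclude it. SDC1 lay between -0.92 and -0.78 with 1 array left out and passed in none of these 6 fits. The smallest difference that could be detected was not measured, and without absolute levels signal over background is unknown.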
